A study of Mus musculus with 6 samples.

Results

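The genes of the YAP/TEAD module were examined in RNA labelled as coming from mouse chondrocytes, the cell type of cartilage. They are 10 of the 26969 genes in the deposited table, taken by gene symbol alone: the coactivators Yap1 and Wwtr1, the DNA-binding factors Tead1, Tead2, Tead3 and Tead4, and the target genes Ccn1, Ccn2, Ankrd1 and Amotl2. All 10 were found under these symbols, and all 10 had enough reads to be among the 17645 genes tested. Poly(A)-selected RNA of wild-type chondrocytes was sequenced in 6 libraries, 3 described as mAC_Mito and 3 described as mAC, to compare cells that had received mitochondria with cells that had not; the series title names osteocytes as the source of the mitochondria. The labels disagree on which is which: for mAC_Mito both title and treatment read vehicle, while for mAC they read mitochondria. Groups are called by their descriptions, which are also the table's column names. Differences run as mAC_Mito minus mAC and are not attributed to the transfer. The extraction protocol speaks of an adipose type of RNA, although the cell type entry is chondrocytes. The labels state neither the age nor the strain of the mice, nor how many animals or cultures the libraries came from.

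YAP and its paralogue TAZ, the product of Wwtr1, bind no DNA themselves. They enter the nucleus and join a TEAD protein, which recognises a short DNA motif, and the complex then activates genes such as Ccn1 and Ccn2. Of the Hippo kinases, MST acts through LATS, which phosphorylates YAP and TAZ and so holds them in the cytoplasm. Spreading, stiff surroundings and actin tension release YAP and TAZ. In chondrocytes, YAP and TAZ are known to take part in the response to mechanical load and in the loss of cartilage character on stiff plastic. Because they are controlled largely through phosphorylation and location, mRNA levels of the factors do not measure their activity.

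The libraries held 59116068 to 68378213 counts. Chondrocyte markers were detected in all of them, the 10 genes summing to 2238 to 3198 FPKM in mAC_Mito and 2362 to 2760 FPKM in mAC. FPKM is the count scaled by gene length and library size. The log2 fold changes of the 10, 6 above 0 and 4 below with a median of 0.045, did not pass the test in any case. Col2a1, the main cartilage collagen and the most abundant, was at 1390 ± 384 FPKM in mAC_Mito and 1117 ± 101 FPKM in mAC (SD, n = 3 each). Matn1, named after its values were seen, averaged only 3.17 FPKM. Acan was at 103 ± 36.1 FPKM in mAC_Mito and 75.1 ± 9.24 FPKM in mAC. Among markers with at least 5 FPKM, Acan had the highest log2 fold change, 0.43, and Hapln1 the lowest, -0.13. The 3 endothelial markers Cdh5, Kdr and Pecam1 were near 0, each averaging under 1 FPKM, as did the leukocyte gene Ptprc at 0.0568 FPKM; the endothelial genes had a median log2 fold change of 0.21 with 0 passing. The macrophage gene Lyz2 averaged 67.0 FPKM. The 5 macrophage markers summed to 65.6 to 108 FPKM in mAC_Mito and 59.6 to 76.1 FPKM in mAC. Lyz2 made up most of that sum, at 57.6 to 96.4 FPKM in mAC_Mito and 49.0 to 68.7 FPKM in mAC. Cd68 averaged 7.83 FPKM, and Csf1r and Adgre1, named after their values were seen, each averaged under 1 FPKM. On log2 CPM, a scale described below, the groups did not overlap for Adgre1, 20.0% of the list beside 8.31% of all genes. None of the 5 passed, and all had a log2 fold change above 0, with a median of 0.29; their part in the results below was not tested. In bulk RNA, fewer cells of a type and less RNA per cell cannot be told apart.

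The secreted targets dominated the module. On the FPKM scale, Ccn2 averaged 543 and Ccn1 361 over the 6 libraries, above 99.6% and 99.4% of the genes tested. Amotl2 followed at 47.5 FPKM, then Wwtr1 at 29.1, Yap1 at 11.4, Tead1 at 7.90, Tead2 at 6.10, Tead3 at 3.18, Tead4 at 2.39 and Ankrd1 at 2.29. The 6-library ranges of Ccn2, Ccn1, Amotl2, Wwtr1 and Yap1 were separate from one to the next. Those of Yap1 and Tead1 overlapped, as did those of Tead1 and Tead2, of Tead3 and Tead4, and of Tead4 and Ankrd1, but within single libraries Yap1 was above Tead1 in all 6, Tead1 above Tead2 in 5, Tead3 above Tead4 in 5 and Tead4 above Ankrd1 in 3. The range of Tead2 lay above that of Tead3.

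No difference between the groups was detected for any of the 10 genes. By edgeR's quasi-likelihood test on counts, 0 of the 10 passed a Benjamini-Hochberg adjusted p of 0.05, against 0.0113% of all genes tested (0.00567% higher and 0.00567% lower in mAC_Mito), and the adjusted p was 0.99992 for each. None had an unadjusted p under 0.05, which 3.19% of all genes had, and the lowest was 0.225 (Tead1). That share of all genes rests on single libraries: it was 6.74% without mAC_Mito 1 and 1.52% without mAC_Mito 3. Without mAC_Mito 1, Yap1 had an unadjusted p of 0.0363, and without mAC 1, where the share was 4.9%, Tead1 had one of 0.00328; their edgeR p-values with Benjamini-Hochberg adjustment were 0.724 for Yap1 and 0.989 for Tead1. On log2 CPM, counts scaled by TMM library sizes and not by gene length, the groups overlapped for all 10, whereas they did not for 8.31% of all genes. The log2 fold change was above 0 for 6 genes and below 0 for 4, with a median of 0.01 beside 0.00 over all genes, and its median size was 0.10 beside 0.12. The 95% intervals, taken gene by gene, give the range of differences allowed by the spread between these libraries. The widest bounds were -0.55 for Ankrd1 and 0.67 for Tead1. For Ccn2 the interval ran from -0.205 to 0.209, which is 0.868-fold to 1.156-fold. Nothing in the labels says that the libraries came from separate cultures or animals. These p-values and intervals therefore rest only on the spread between libraries, which may be technical.

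**Figure D1:**
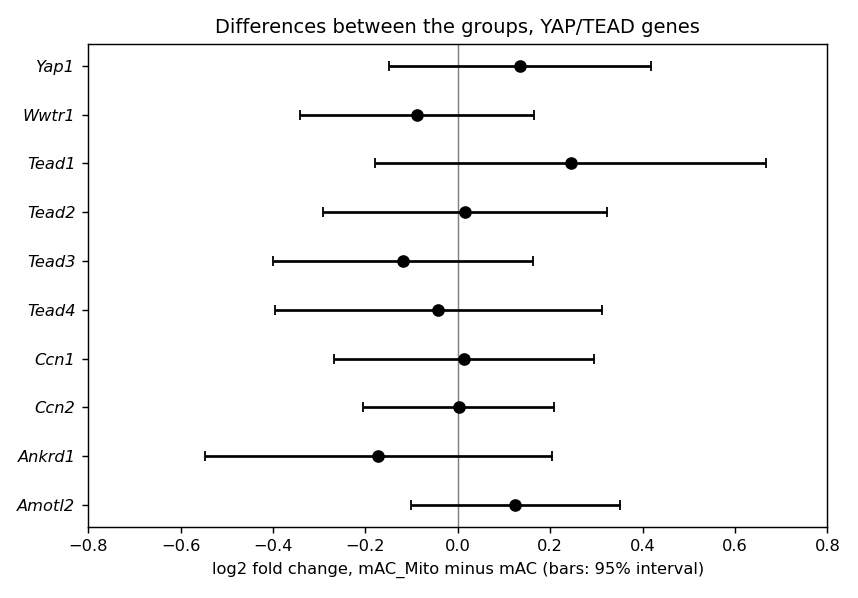
Log2 fold change of each gene, mAC_Mito minus mAC, from edgeR (points) with its 95% interval (bars), 3 libraries a group. Every interval spans 0, the narrowest is that of Ccn2 (-0.205 to 0.209) and the widest that of Tead1 (-0.18 to 0.67).

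Among the coactivators, Yap1 (ENSMUSG00000053110, minus strand, chr9:7931999-8004596, GRCm38) was at 9.32, 13.5 and 13.1 FPKM in mAC_Mito 1, 2 and 3, against 9.81, 10.3 and 12.1 FPKM in mAC 1, 2 and 3. Libraries mAC_Mito 2 and 3 were the highest of the 6 and mAC_Mito 1 the lowest, so the means of 12.0 ± 2.30 FPKM in mAC_Mito and 10.7 ± 1.23 FPKM in mAC (SD, n = 3 each) differed by less than the spread within mAC_Mito. On the log2 scale the fold change was 0.13 ± 0.13 (± standard error, as in what follows). Wwtr1 (ENSMUSG00000027803, minus strand, chr3:57455649-57575910) was steadier, at 29.6, 28.2 and 27.6 FPKM in mAC_Mito and 31.7, 29.8 and 27.8 FPKM in mAC. It averaged 28.5 ± 1.004 FPKM in mAC_Mito and 29.8 ± 1.95 FPKM in mAC (SD, n = 3 each), and its log2 fold change was -0.09 ± 0.11.

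On the FPKM scale, the coactivator mRNA of these cells was mainly that of TAZ. The ratio of Wwtr1 to Yap1 FPKM was 3.17, 2.10 and 2.10 in mAC_Mito 1, 2 and 3, and 3.23, 2.90 and 2.29 in mAC 1, 2 and 3. Wwtr1 thus exceeded Yap1 in all 6 libraries. The size of the ratio rests on gene length, 9257 exonic bases for Yap1 and 4779 for Wwtr1. In counts, not scaled by length, Wwtr1 was also above Yap1 in every library, by a smaller margin. Wwtr1 had 9135 to 10789 counts in mAC_Mito and 9505 to 11206 in mAC. For Yap1 they were 6590 to 8455 in mAC_Mito and 6412 to 8031 in mAC. The lengths of the transcripts made in these cells were not measured. The mean ratios of 2.46 ± 0.620 in mAC_Mito and 2.81 ± 0.477 in mAC (SD, n = 3 each) differed by less than the spread within either group. The ratio was lowest in mAC_Mito 2 and 3, where Yap1 was highest.

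Each of the 4 TEAD genes was expressed, in a narrow span of levels on the FPKM scale. Tead1 (ENSMUSG00000055320, plus strand, chr7:112679318-112906807) was at 6.94, 9.48 and 9.59 FPKM in mAC_Mito, against 9.04, 6.07 and 6.27 FPKM in mAC. The libraries fell into a high set of mAC_Mito 2, mAC_Mito 3 and mAC 1 and a low set of the other 3, so each group held both. Tead1 had the highest coefficient of variation of the 10 genes, 20.9% over 6 libraries, and a log2 fold change of 0.24 ± 0.19. Without mAC 1 the log2 fold change was 0.51, with an unadjusted p of 0.00328 that did not pass after edgeR's Benjamini-Hochberg adjustment.

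Tead2 (ENSMUSG00000030796, plus strand, chr7:45215753-45233644), a family member known from embryonic tissue, was at 6.16, 5.20 and 7.17 FPKM in mAC_Mito and 6.11, 6.15 and 5.81 FPKM in mAC. Its highest and lowest libraries were both mAC_Mito. Tead3 (ENSMUSG00000002249, minus strand, chr17:28331671-28350663) was at 2.66, 3.35 and 3.23 FPKM in mAC_Mito and 3.51, 3.28 and 3.03 FPKM in mAC. Tead4 (ENSMUSG00000030353, minus strand, chr6:128224288-128300823), known for its role in the trophectoderm, was at 2.68, 2.40 and 2.04 FPKM in mAC_Mito and 2.55, 2.34 and 2.34 FPKM in mAC. The groups overlapped for all 3 genes, with log2 fold changes of 0.02 ± 0.14 for Tead2, -0.12 ± 0.13 for Tead3 and -0.04 ± 0.16 for Tead4 (± standard error).

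**Figure D2:**
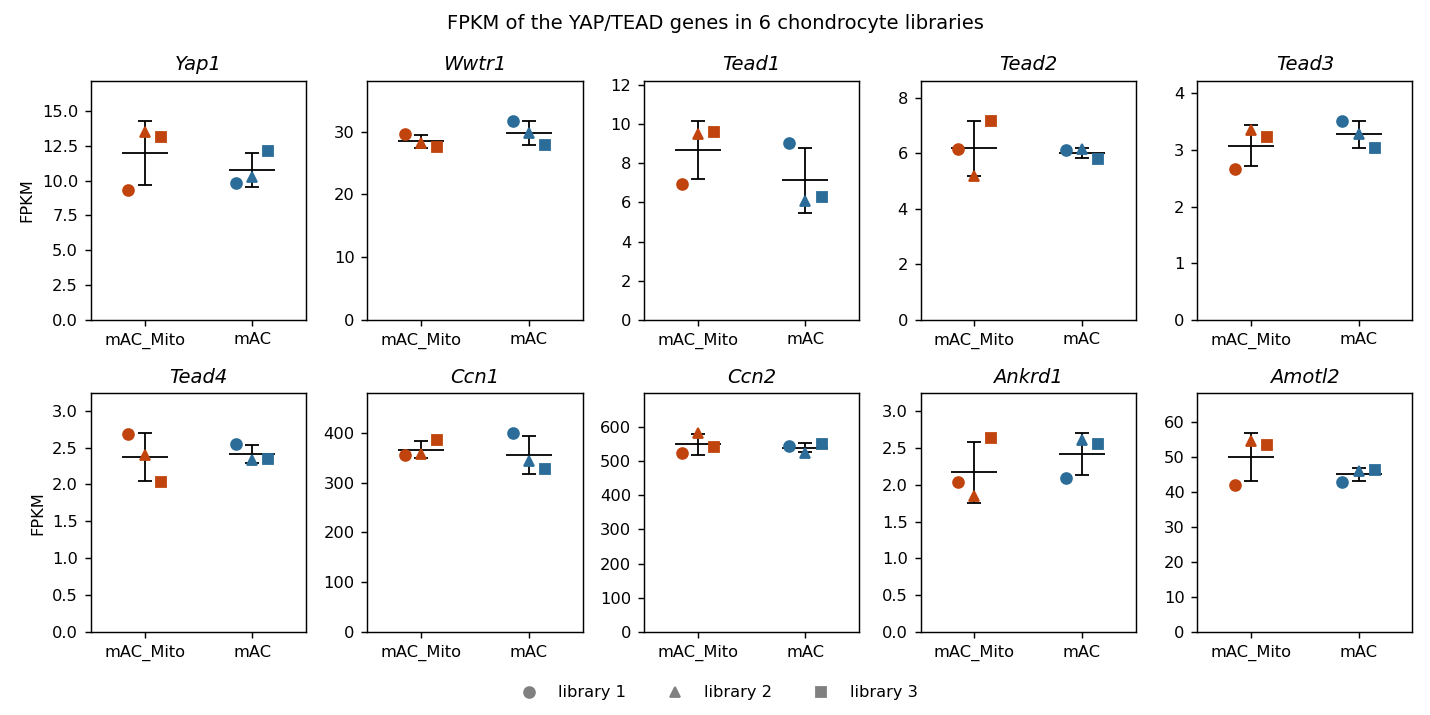
FPKM of each gene in every library (points; the symbol gives the library number) with the group mean and SD (line and bar, n = 3). The axes start at 0 and differ between genes; the points of the groups overlap in every panel, and Yap1 and Amotl2 are highest in mAC_Mito 2 and 3.

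Set per length, the family's transcripts were shared mainly between Tead1 and Tead2. The 4 genes summed to 18.4, 20.4 and 22.0 FPKM in mAC_Mito 1, 2 and 3, and to 21.2, 17.8 and 17.4 FPKM in mAC 1, 2 and 3. Tead1 made up 37.6%, 46.4% and 43.5% of that sum in mAC_Mito and 42.6%, 34.0% and 35.9% in mAC. Tead2 made up 25.4% to 33.4% in mAC_Mito and 28.8% to 34.5% in mAC, Tead3 14.4% to 16.4% in mAC_Mito and 16.5% to 18.4% in mAC, and Tead4 9.25% to 14.5% in mAC_Mito and 12.0% to 13.4% in mAC. Tead1 led in 5 of the 6 libraries, and in mAC 2 it stood at 34.0% beside 34.5% for Tead2. These shares rest on gene length, 13570 exonic bases for Tead1 and 4788 for Tead2. In counts, Tead1 was well above Tead2 in every library. Tead1 had 7193 to 9038 counts in mAC_Mito and 6079 to 8650 in mAC. For Tead2 they were 1690 to 2389 in mAC_Mito and 1990 to 2328 in mAC. The Tead3 share was lower in each mAC_Mito library than in any mAC library, a difference that was not tested; the 4 shares add up to 1 whole and are not independent of each other. Yap1 and Wwtr1 together gave 1.85 to 2.11 times the summed TEAD FPKM in mAC_Mito and 1.96 to 2.29 times in mAC.

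**Figure D3:**
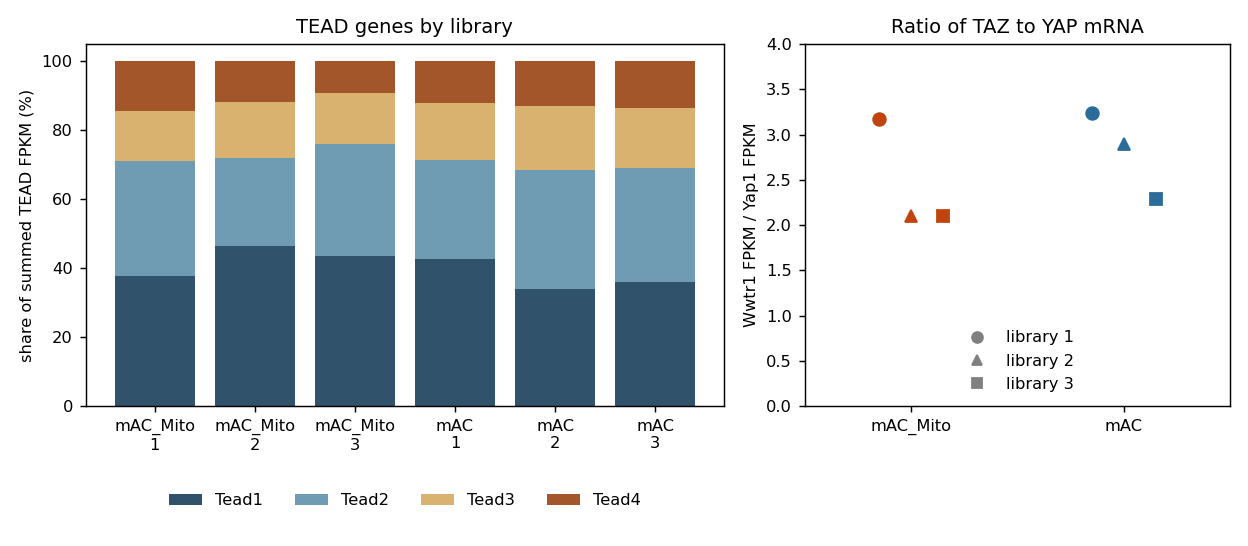
Left, the share of summed TEAD FPKM (%) taken by each of the 4 genes in each library; right, the ratio of Wwtr1 to Yap1 FPKM in each library. Tead1 and Tead2 hold most of the sum in all 6 libraries, and the ratio lies between 2.10 and 3.23.

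Among the targets, Ccn2 (ENSMUSG00000019997, plus strand, chr10:24595442-24598683), which encodes the matricellular growth factor CTGF, was at 522, 581 and 541 FPKM in mAC_Mito and 543, 523 and 549.7 FPKM in mAC. It varied least of the 10 genes, with a coefficient of variation of 3.96% over 6 libraries. Its log2 fold change was 0.00 ± 0.09. Its exons share 665 bases with those of the opposite-strand gene Gm15270, which had 477 counts over all libraries, against 107549 to 117809 for Ccn2 in each. Ccn1 (ENSMUSG00000028195, minus strand, chr3:145646976-145649981), which encodes the matricellular protein CYR61, was at 356, 357 and 386 FPKM in mAC_Mito and 399, 343 and 326 FPKM in mAC. Both its highest and its lowest library were mAC, and its log2 fold change was 0.01 ± 0.13. Ccn2 exceeded Ccn1 1.40-fold to 1.63-fold in mAC_Mito and 1.36-fold to 1.68-fold in mAC on the FPKM scale.

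Amotl2 (ENSMUSG00000032531, plus strand, chr9:102716672-102733418) is both a target and a brake, since its product, an angiomotin, binds YAP and holds it in the cytoplasm. It was at 42.1, 54.4 and 53.3 FPKM in mAC_Mito, against 42.9, 45.9 and 46.3 FPKM in mAC. As with Yap1, mAC_Mito 2 and 3 were the highest libraries and mAC_Mito 1 the lowest. It averaged 49.9 ± 6.83 FPKM in mAC_Mito and 45.0 ± 1.89 FPKM in mAC (SD, n = 3 each), and its log2 fold change was 0.12 ± 0.10. Ankrd1 (ENSMUSG00000024803, minus strand, chr19:36111961-36119910), an ankyrin repeat protein best known from heart and skeletal muscle, had the lowest mean of the 10 genes, though it was above Tead4 in 3 of the 6 libraries. It was at 2.03, 1.84 and 2.63 FPKM in mAC_Mito and 2.09, 2.60 and 2.55 FPKM in mAC, from 362 to 592 counts a library. Its log2 fold change was -0.17 ± 0.17.

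Skeletal muscle genes were measured beside Ankrd1. The log2 fold change was above 0 for all 13 muscle markers, none of which passed the test, and their median was 0.29. On log2 CPM the groups did not overlap for Tnnc2, a fast troponin, and Myh8, a myosin gene named after its values were seen. That is 15.4% of the list beside 8.31% of all genes. By edgeR, 15.4% of the list also had an unadjusted p under 0.05, beside 3.19% of all genes. Myh8 was low, averaging 0.505 FPKM in mAC_Mito and 0.344 FPKM in mAC. Mylpf, the most abundant, was at 24.2 ± 1.44 FPKM in mAC_Mito and 19.8 ± 10.1 FPKM in mAC (SD, n = 3 each). Tnnt3 had the lowest log2 fold change among muscle genes with at least 5 FPKM, 0.015. The groups overlapped for Mylpf and for Tnnt3. The summed level of the 13 was 79.3 to 94.6 FPKM in mAC_Mito and 53.5 to 95.8 FPKM in mAC. None was at 0 in all libraries, and the defining factor Myod1 averaged 0.413 FPKM. Ankrd1 had a log2 fold change of the opposite sign, and the part of muscle RNA in its level was not tested.

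The upstream DNA of the module's genes is shown because TEAD proteins read the letters GGAATG, or CATTCC on the other strand. The sequences come from RefSeq on GRCm38.p6 and cover the 250 bases before the annotated start. A window was found for 7 of the 10 genes; Ccn2, Tead1 and Tead4 had none. Searched in either orientation, which for these 2 words covers both strands, the motif was present in a window of 6 of these 7 genes, all but Tead2. Of all 27025 genes with a window, 14.4% had it in at least 1, and of single windows 12.6% did. The gene-level figures count a gene as holding the motif if any of its windows does; Tead3 has 3 windows and Wwtr1 has 2. Each stretch below is written 5′ to 3′ on the strand of its gene, with the motif in capitals. That of Ccn1 lies at chr3:145649986-145650235, and its match begins 103 bases before the start. That of Ankrd1, at chr19:36119911-36120094, stops where GENCODE places an earlier start and holds 2 matches, 210 and 123 bases before the RefSeq start. Only 1.02% of all windows held 2 or more.
Ccn1: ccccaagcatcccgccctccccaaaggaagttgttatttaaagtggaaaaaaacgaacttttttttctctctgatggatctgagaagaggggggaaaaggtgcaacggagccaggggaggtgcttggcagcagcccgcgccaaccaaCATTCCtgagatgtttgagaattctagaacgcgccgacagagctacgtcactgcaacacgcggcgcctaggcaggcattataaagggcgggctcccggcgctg
Ankrd1: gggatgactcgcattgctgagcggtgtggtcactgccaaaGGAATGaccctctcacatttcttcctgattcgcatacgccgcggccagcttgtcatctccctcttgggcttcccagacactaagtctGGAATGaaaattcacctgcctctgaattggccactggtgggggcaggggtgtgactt

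Matches of 4 more genes are shown as 30 bases each. That of Amotl2, at chr9:102717727-102717756, lies 65 bases before the RefSeq start but after an earlier start in GENCODE. The coactivator genes hold one each, 141 bases before the start of Yap1 at chr9:8004720-8004749 and 136 bases before the more upstream start of Wwtr1 at chr3:57576029-57576058. The stretch from Tead3, at chr17:28350706-28350735, holds a pair of matches 123 and 114 bases before one of its starts but, like that of Amotl2, after an earlier start in GENCODE; a further match, 182 bases before another start, is not shown.
Amotl2: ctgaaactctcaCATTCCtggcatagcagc
Yap1: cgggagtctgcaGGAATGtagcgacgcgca
Wwtr1: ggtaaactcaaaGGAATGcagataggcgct
Tead3: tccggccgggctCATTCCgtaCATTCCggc
A match is a run of letters and not a measured binding site. Of the 6 genes with a match, Ccn1, Wwtr1 and Tead3 had their highest FPKM in mAC 1, Yap1 and Amotl2 in mAC_Mito 2 and Ankrd1 in mAC_Mito 3.

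Across single libraries the genes moved by small amounts and in different patterns. On the log2 CPM scale, each gene set against its own mean over the 6 libraries, Yap1 was at -0.21, 0.20 and 0.20 in mAC_Mito 1, 2 and 3 and at -0.10, -0.14 and 0.05 in mAC 1, 2 and 3. Amotl2 followed the same split within mAC_Mito, at -0.11, 0.15 and 0.14, with all mAC libraries between -0.09 and -0.04. Tead1 was at -0.10, 0.23 and 0.28 in mAC_Mito and at 0.32, -0.36 and -0.36 in mAC. On this scale 5 genes had mAC 1 as their highest library: Tead1, then Tead3 at 0.25, Ccn1 at 0.25, Wwtr1 at 0.22 and Ccn2 at 0.10.

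Tead1, with 13570 exonic bases the longest of the 10 gene models, was above its mean in the same libraries as long genes in general. The mean deviation of 4595 genes with at least 6000 exonic bases, minus that of 4274 genes under 2000, was -0.10, 0.15 and 0.06 in mAC_Mito 1, 2 and 3 and 0.07, -0.11 and -0.08 in mAC 1, 2 and 3. It was above 0 in the same 3 libraries in which Tead1 was high. Yap1 and Amotl2, with 9257 and 6289 exonic bases, were also high where it was above 0 in mAC_Mito, though not in mAC 1. Tead3, with 6714 exonic bases, differed, at -0.194, 0.023 and -0.002 in mAC_Mito 1, 2 and 3. In mAC 1, 2 and 3 it was at 0.247, 0.045 and -0.12. The share of counts in mitochondrial mRNAs was 5.60%, 2.91% and 3.40% in mAC_Mito and 7.31%, 4.71% and 3.13% in mAC, and Yap1 was lowest in the 3 libraries with the highest shares. The part of transcript length and of mitochondrial RNA in these levels was not tested.

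**Figure D4:**
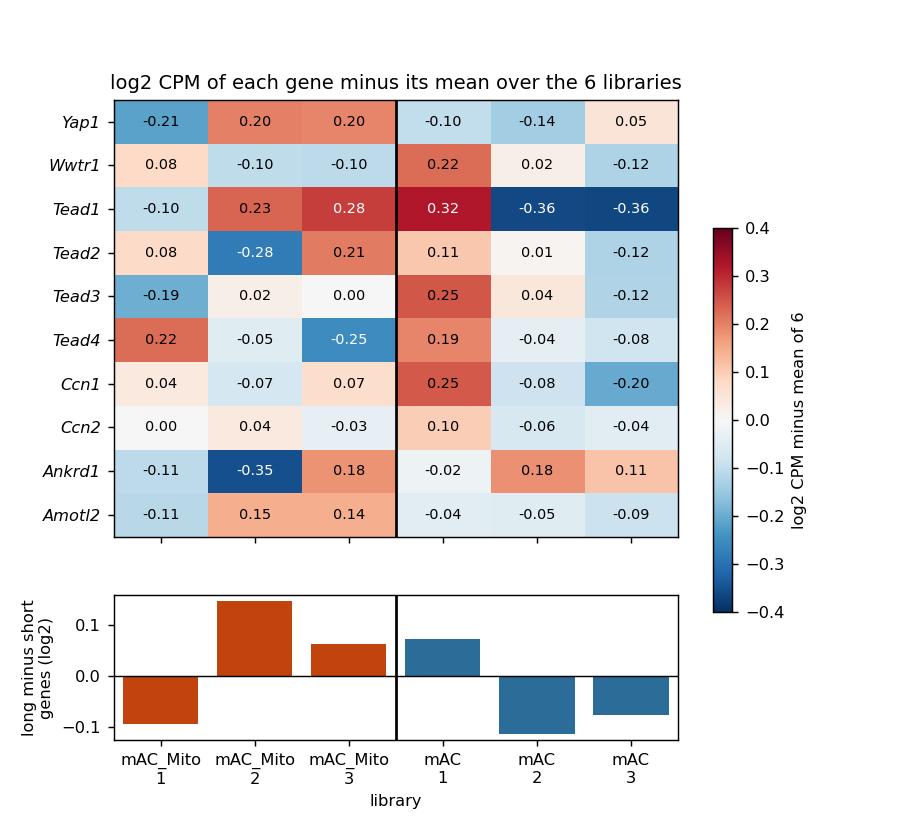
Top, log2 CPM of each gene minus its mean over the 6 libraries, for each library (columns; mAC_Mito left of the line, mAC right). Bottom, the mean of the same deviation over genes with at least 6000 exonic bases minus that over genes under 2000. The row of Tead1 is above 0 in mAC_Mito 2, mAC_Mito 3 and mAC 1, where the lower bars are too.

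By Pearson correlation of log2 CPM over the 6 libraries, among 6214 named genes with at least 5 FPKM, those most like Ccn1 were Drosha, which processes microRNA precursors (r = 0.9987), the chromatin factor Kansl1 (0.9948) and the cytokine Tnfsf12 (0.9888). A correlation of at least 0.95 with Ccn1 was reached by 54 genes. For Ankrd1 they were Zcchc17 (0.947), the immediate early gene Ier2 (0.9436) and the complement protease C1s1 (0.942), and none reached 0.95. These values rest on the same 6 libraries, which also share the length-related differences above, and are a description only.

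The wider pathway was read from lists of related genes. Of 18 Hippo kinases and upstream regulators, 0 passed the test in either direction. The log2 fold change was above 0 for 11 and below 0 for 7, with a median of 0.05. Mob1a, an activator of the LATS kinases, was the most abundant, at 32.7 ± 3.81 FPKM in mAC_Mito and 32.2 ± 4.28 FPKM in mAC (SD, n = 3 each). The scaffold Frmd6 had a log2 fold change of 0.17 and the MST kinase gene Stk3 one of -0.14, the extremes among genes with at least 5 FPKM. Dchs1, an atypical cadherin of the Fat pathway named after its values were seen, had the only unadjusted p under 0.05 of this list (0.0101; 5.56% of the list beside 3.19% of all genes), with 0.708, 1.13 and 1.15 FPKM in mAC_Mito against 0.714, 0.521 and 0.635 FPKM in mAC (log2 fold change 0.64 ± 0.20, edgeR adjusted p 0.99992).

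Of 10 other partners and inhibitors of YAP, TAZ and TEAD, 9 were tested and 0 passed; Vgll1 was not analysed here. The median log2 fold change was 0.155, with 6 above 0 and 3 below. On log2 CPM the groups did not overlap for Amot and Amotl1, the other angiomotins, both named after their values were seen, which is 22.2% of the list beside 8.31% of all genes. Amot was at 4.16, 6.05 and 5.44 FPKM in mAC_Mito and 3.81, 3.42 and 4.23 FPKM in mAC. Its log2 fold change was 0.42 ± 0.13 (edgeR unadjusted p = 0.00993, adjusted 0.99992). That unadjusted p was the only one under 0.05 of the list, 11.1% of its tested genes beside 3.19% of all genes. Amotl1 was at 7.80, 11.2 and 9.03 FPKM in mAC_Mito and 7.45, 7.00 and 8.35 FPKM in mAC. On the FPKM scale, which is scaled otherwise, both overlapped. Ajuba, a LIM protein that restrains LATS and the most abundant of the list, was at 19.3 ± 1.97 FPKM in mAC_Mito and 18.3 ± 1.79 FPKM in mAC. The TEAD cofactor Vgll3 had the lowest log2 fold change among genes with at least 5 FPKM, -0.12.

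Of 18 other YAP and TAZ target genes, 0 passed, and 14 had a log2 fold change above 0 and 4 below, with a median of 0.13. The groups did not overlap for 3 of them, 16.7% beside 8.31% of all genes: F3, the RNA-binding protein gene Rbms3 and the transcription factor gene Foxf2, the last 2 named after their values were seen. Both were low: Rbms3 averaged 1.78 FPKM in mAC_Mito and 1.44 FPKM in mAC. Foxf2 averaged 0.617 FPKM in mAC_Mito and 0.491 FPKM in mAC, with an edgeR unadjusted p of 0.240. By edgeR, 3 of the 18 had an unadjusted p under 0.05, 16.7% beside 3.19% of all genes: Rbms3 (0.0265), Crim1 (0.0324) and F3. The list shares Lats2 and Ptpn14 with the lists above. Crim1, a membrane protein that binds BMPs, was at 11.9, 19.7 and 18.0 FPKM in mAC_Mito and 11.5, 11.6 and 14.3 FPKM in mAC, with a log2 fold change of 0.38 ± 0.15. It was high in mAC_Mito 2 and 3, like Yap1 and Amotl2. The phosphatase gene Ptpn14, also a binding partner of YAP, showed the same, at 5.18, 9.24 and 7.79 FPKM in mAC_Mito and 5.46, 5.20 and 6.27 FPKM in mAC. F3, the coagulation starter tissue factor, ran the other way without overlap, at 41.3, 39.8 and 40.5 FPKM in mAC_Mito and 48.0, 45.8 and 46.1 FPKM in mAC. Its log2 fold change was -0.22 ± 0.10 (edgeR unadjusted p = 0.0483, adjusted 0.99992). Ccdc80, a matrix protein and the most abundant of the list, was at 273 ± 11.6 FPKM in mAC_Mito and 300.3 ± 12.0 FPKM in mAC.

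The other CCN genes, the family of Ccn1 and Ccn2, were far lower. Ccn5 led them at 58.0 ± 5.93 FPKM in mAC_Mito and 60.2 ± 13.1 FPKM in mAC, and Ccn3 was at 18.7 ± 1.31 FPKM in mAC_Mito and 18.3 ± 3.95 FPKM in mAC. None of the 4 passed, and their median log2 fold change was -0.07. Genes driven by SRF, which like YAP responds to actin, had a median log2 fold change of 0.00 over 11 genes with 0 passing. Among them Acta2, smooth muscle actin, was at 568 ± 41.9 FPKM in mAC_Mito and 571 ± 33.2 FPKM in mAC. The actin crosslinker Flna had the highest log2 fold change, 0.33. It was at 74.4, 126 and 117 FPKM in mAC_Mito and 76.0, 81.2 and 91.2 FPKM in mAC. Cnn1 had the lowest log2 fold change of these genes, -0.135. The immediate early genes, which mark handling and serum as Ccn1 can, had a median of -0.03 over 12 genes with 0 passing. Dusp1, a phosphatase of MAP kinases, was at 40.8 ± 5.89 FPKM in mAC_Mito and 47.1 ± 7.06 FPKM in mAC, and Jun at 19.1 ± 1.40 FPKM in mAC_Mito and 17.2 ± 0.546 FPKM in mAC.

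The table's own KEGG annotation, read as a list only after the file was seen, marks 140 genes apart from the 10 as Hippo signaling, of which 130 were tested. None passed, 80 had a log2 fold change above 0 and 50 below, and the median was 0.06. The groups did not overlap for 17 of them, 13.1% beside 8.31% of all genes, and 8 had an unadjusted p under 0.05, 6.15% beside 3.19%. That set also holds Wnt, TGF-beta and BMP genes. It repeats genes of the lists above, such as Lats1, Lats2, Mob1a, Stk3 and Ajuba, and is not independent of them. Amot, also repeated, is counted again among the 17 and among the 8.

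**Figure D5:**
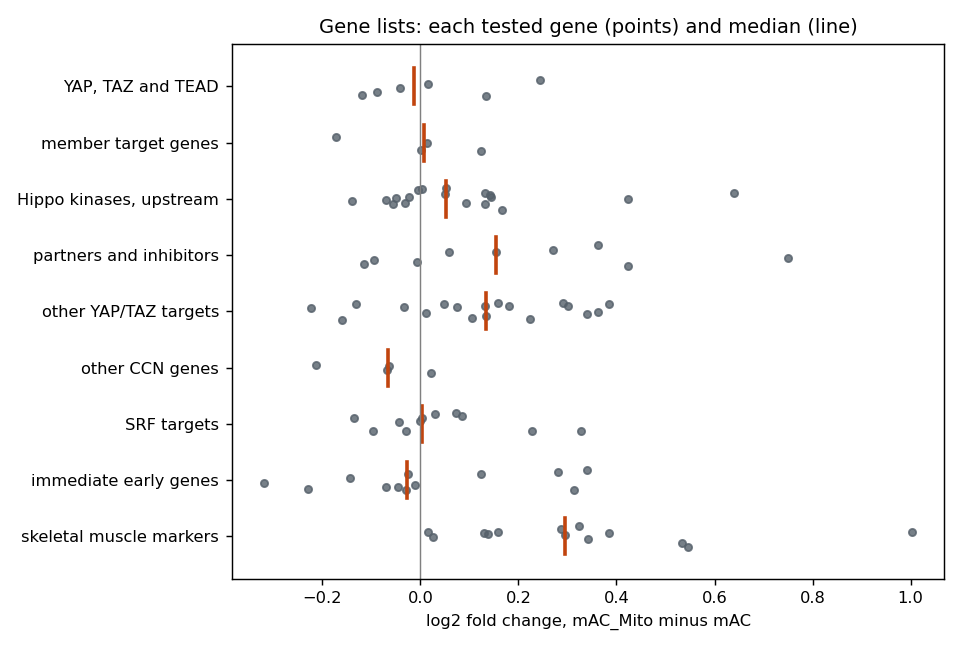
Log2 fold change, mAC_Mito minus mAC, of every tested gene (points, spread vertically for legibility) of each list, with the list's median (line). No point passed an adjusted p of 0.05; the medians run from -0.07 for the other CCN genes to 0.29 for the skeletal muscle markers.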

How the data were processed

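Per the submitters' processing notes, HISAT2 2.0, StringTie 1.3.0, Bowtie 0.12.2 and the build mm8 were named without roles; the table's coordinates for the genes shown are those of GRCm38. Raw counts and FPKM per gene were deposited by the authors, per the file headers; how reads were counted, and whether by strand, is not given in the sources used here. FPKM differed from TMM scaling by -6.6% to 4.12% per library.

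Counts were tested with edgeR 4.0.16 in R 4.3.3 (filterByExpr, minimum count 10 and total 15; TMM; quasi-likelihood F test, two-sided, Benjamini-Hochberg over 17645 genes, threshold 0.05), and the script was checked on simulated data. Intervals are those implied by the F statistic. Log2 CPM used a prior count of 2. Alternatives used DESeq2 1.42.0, its size factors, other filters, limma 3.58.1 on log2(FPKM + 1) and log2(FPKM + 0.1), a replicate block, and each library left out. No libraries agreed within sampling noise (chi-square per degree of freedom of 23.5 or more). Named genes of each list are the most abundant one and, with at least 5 FPKM, those of highest and lowest log2 fold change. Others are marked, apart from Ptprc, Myod1, Kdr, Pecam1 and genes named as shared between lists. The genes and lists were chosen with earlier results of these data known. Exon lengths are unions over GENCODE M21.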

Additional observations from a re-analysis of the deposited data

How the results depend on the processing

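Under 13 alternatives, none of the 10 YAP/TEAD genes and none of the pathway list genes passed an adjusted p of 0.05, and the lowest adjusted p of any of the 10 was 0.724. Of 127 fold changes of these genes recomputed, 111 kept their direction and 16 did not. Ccn2 turned to -0.0014 with DESeq2 and with its size factors. Leaving out each library in turn gave log2 fold changes of -0.0343 to 0.0574 for Ccn2, -0.0778 to 0.1567 for Ccn1, -0.0913 to 0.1443 for Tead2, -0.1836 to 0.0645 for Tead4 and -0.1661 to 0.0115 for Wwtr1, so these signs are not stable. Yap1 (0.0654 to 0.2535), Tead1 (0.1213 to 0.5116), Amotl2 (0.0817 to 0.199), Tead3 (-0.2039 to -0.0166) and Ankrd1 (-0.3204 to -0.0512) kept theirs. Genes with a mean FPKM of at least 5 exclude Tead3, Tead4 and Ankrd1.

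Over all genes, 2 passed, against 4 with DESeq2, 1 with limma on log2(FPKM + 1) and 0 without a filter or among genes of at least 5 FPKM (760 and 151 at an unadjusted p under 0.05). Leaving out libraries gave 0 to 4: 0 without mAC_Mito 1 or mAC_Mito 3, and 4 without mAC_Mito 2 or mAC 3. An unadjusted p under 0.05 was then had by 277 to 1225 genes, against 563 with all libraries. The cause was not tested. With the replicate number as a block, 2 genes passed and 0 of the 10. Same-numbered libraries correlated at 0.124, -0.06 and -0.012 in their deviations from group means, and differently numbered ones at -0.14 to 0.154. With 3 libraries a group, these values cannot decide whether same-numbered libraries were prepared as pairs. The difference in the Tead1 share was 5.02 percentage points (3.07 to 7.57 with a library left out), and that in the ratio of Wwtr1 to Yap1 was -0.352 (-0.710 to -0.140).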
